A study of Mus musculus with 4 samples.

Results

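The genes described here are 10 regulators of gene expression that epidermal keratinocytes use to start or finish differentiation, namely Trp63, Klf4, Klf5, Ehf, Elf3, Grhl1, Grhl3, Ovol1, Gata3 and Hopx. They were chosen by symbol. Each has 1 transcript cluster on the array, a set of probes spread along a gene that is read as 1 value, and these 10 stand among 19938 genes with a named cluster. All 10 entered the test, which took 11255 genes with a mean log2 signal above 7.61, the middle value of the cluster means. RNA of mouse skin (C57BL/6) was hybridised to 4 Affymetrix MoGene 1.0 ST arrays. In the K5-Cre group (replicates 2 and 6) both mice are labelled CflarF/F;K5-Cre;Tnfrsf1a+/-. In the no K5-Cre group, replicate 1 is labelled CflarF/+;Tnfrsf1a+/- and replicate 3 CflarF/F;Tnfrsf1a+/-. All 4 samples therefore share the loss of 1 allele of Tnfrsf1a, the gene of the TNF receptor TNFR1, and all carry at least 1 floxed allele of Cflar, the gene of the death receptor inhibitor cFLIP. K5-Cre is Cre recombinase driven by the promoter of keratin 5, a keratin of the basal layer. Most cells in a piece of skin that neither express keratin 5 nor come from such cells are therefore outside its action. No age, sex or batch is given for the samples, nor whether RNA was pooled over animals, so the p-values measure the spread between these 4 samples only, which may be technical. The series text asks which genes could hold back epidermal differentiation and keratinocyte proliferation.

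The epidermis renews from a basal layer, whose cells leave the basement membrane, stop dividing and build the cornified barrier. p63, encoded by Trp63, sets and keeps the epithelial identity of basal cells, and the factors that act later, such as KLF4, the grainyhead-like proteins GRHL1 and GRHL3, OVOL1 and the ETS factors EHF and ELF3, switch on genes of barrier and envelope or switch off those of proliferation. GATA3 acts both in the epidermis and in the inner root sheath of the hair follicle, and it is also a factor of T cells and innate lymphoid cells. HOPX is an atypical homeodomain protein that does not bind DNA itself and is found in differentiating keratinocytes and in follicle stem cells.

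In skin labelled K5-Cre, 8 of the 10 genes were higher, Gata3 was lower and Trp63 did not pass the test. Ehf rose 12.7-fold, Elf3 7.61-fold, Hopx 4.86-fold, Grhl3 4.61-fold, Ovol1 3.74-fold and Klf4 2.37-fold, whereas Grhl1 and Klf5 rose by less than those, 1.89-fold and 1.40-fold. The call was an adjusted p under 0.05 in a moderated linear model (limma) with 2 arrays per group, adjusted over all genes tested. In the same comparison 64.0% of all tested genes passed, 25.2% higher and 38.8% lower, so a call in itself sets no gene apart here. The shares that passed with no filter were 58.7% of 19938 genes, 30.8% higher and 27.9% lower. The median log2 difference was 1.57 over the 10 genes and −0.14 over all tested genes, and 4 of the 10, Ehf, Elf3, Hopx and Grhl3, were at least 4-fold higher, a size reached upward by 3.83% of all tested genes and by 2.45% of all 19938 genes with no filter. Ehf and Elf3 lay under the filter level without K5-Cre and entered only through the K5-Cre arrays, so their direction was set by the filter and their count is given as a description. No overlap between groups was seen for 9 of the 10 genes, close to the 86.0% found over all tested genes. Between CflarF/F mice alone, the comparison named in the series text, 1 control array remains (no K5-Cre replicate 3). There 7 of the 10 genes were higher and 0 lower, against 13.0% and 21.0% of all tested genes (34.0% in either direction), and Klf5, Gata3 and Trp63 did not pass.

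**Figure D1:**
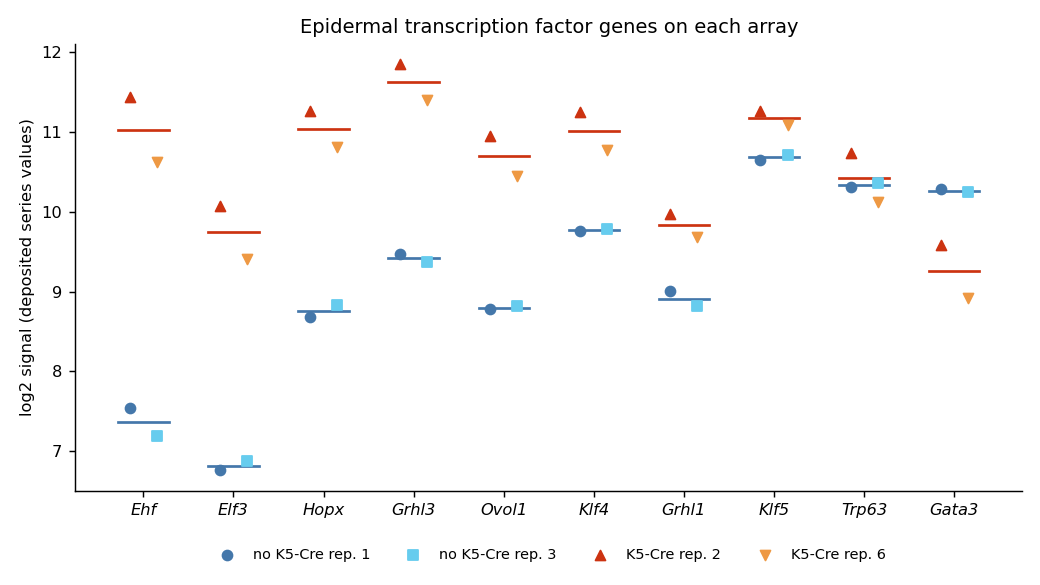
Deposited log2 signal of each of the 10 genes (vertical axis) on each array, with genes ordered along the horizontal axis from the largest rise to the fall. Points are single arrays and short lines are group means (n = 2). The K5-Cre arrays lie above both no K5-Cre arrays for 8 genes, on both sides of them for Trp63 and below them for Gata3, and replicate 2 (red triangle) lies above replicate 6 for every gene.

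Before the single genes, the comparison as a whole needs a few values. The array medians ran from 7.53 to 7.61. The SD of the difference between arrays over tested genes was 0.12 in the no K5-Cre pair and 0.36 in the K5-Cre pair. All 3 clusters named Cflar were higher in the K5-Cre arrays, by 0.46 to 0.83 on the log2 scale, with signals of 7.57 to 8.97 without and 8.03 to 9.71 with K5-Cre. A gene whose mean lies under the filter level in 1 group passes only through the other group, which fixes its direction. This holds for all 8 tested neutrophil markers and for 3 of 6 tested skeletal muscle markers. With no filter, 10 of 10 neutrophil markers passed as higher (median 5.19) and 8 of 9 skeletal muscle markers as lower (median −3.81). Whether their low signals stand above array background was not assessed. The labels do not say which exon is floxed and skin holds cells without K5-Cre, so these values check no label, and each direction given here rests on the labels. In bulk skin, fewer cells of a type and less RNA per cell cannot be told apart.

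Promoter windows of 300 bases, 250 before and 50 after the start of a transcript, were found in RefSeq (GRCm38.p6) for 6 of the 10 genes, Elf3, Gata3, Klf4, Grhl3, Hopx and Grhl1, with 2 starts each for Hopx and Grhl1. They were searched on both strands for short motifs of the same factor families. These were AACNGGTT for GRHL, GGGNGTGG for KLF, CCGGAAGT for the ETS factors, AGATAAG for GATA, CATG, 6 bases of any kind and CATG again for p63 and CCGTTA for OVOL. Over all 32851 windows of that length in the table, the shares that hold them are 2.09%, 17.6%, 3.89%, 3.04%, 0.712% and 2.76%. The only matches in the 8 windows of these genes were to the KLF motif, GGGGGTGG in the Gata3 window, beginning 138 bases before the start, and its reverse complement CCACCCCC in the Grhl3 window, beginning 118 bases before the start. No match overlapped another, and a match describes the letters only. These windows are shown because Grhl3 rose and Gata3 fell while both hold the KLF motif, and that of Elf3 because that gene rose most among those with a window. Capitals mark the KLF match, and each runs 5′ to 3′ on the strand of its gene, here the minus strand at chr4:135573583-135573882 (Grhl3), chr2:9878551-9878850 (Gata3) and chr1:135258423-135258722 (Elf3).
Grhl3: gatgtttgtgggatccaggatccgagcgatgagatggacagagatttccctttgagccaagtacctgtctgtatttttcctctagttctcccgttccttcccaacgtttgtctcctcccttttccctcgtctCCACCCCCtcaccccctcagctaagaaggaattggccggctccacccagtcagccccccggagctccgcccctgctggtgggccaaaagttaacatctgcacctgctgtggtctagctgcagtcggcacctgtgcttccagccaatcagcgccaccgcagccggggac
Gata3: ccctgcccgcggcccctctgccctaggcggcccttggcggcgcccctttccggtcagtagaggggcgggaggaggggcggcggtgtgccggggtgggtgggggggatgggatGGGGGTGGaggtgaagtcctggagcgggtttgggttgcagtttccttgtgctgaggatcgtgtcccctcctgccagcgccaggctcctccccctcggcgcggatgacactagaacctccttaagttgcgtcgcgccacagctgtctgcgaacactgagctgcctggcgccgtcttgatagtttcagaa
Elf3: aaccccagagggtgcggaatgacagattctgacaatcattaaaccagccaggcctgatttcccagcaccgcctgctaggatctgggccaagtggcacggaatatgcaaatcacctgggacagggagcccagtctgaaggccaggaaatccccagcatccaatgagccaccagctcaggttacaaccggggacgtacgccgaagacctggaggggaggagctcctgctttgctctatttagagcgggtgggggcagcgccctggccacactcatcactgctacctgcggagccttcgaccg
The windows differ in base composition as well, with a GC content of 58.3% for Grhl3, 67.3% for Gata3 and 59.0% for Elf3.

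Trp63, the gene of the basal identity factor, did not pass. Its log2 signal was 10.31 and 10.36 in no K5-Cre replicates 1 and 3, and 10.73 and 10.13 in K5-Cre replicates 2 and 6. K5-Cre replicate 2 thus lay above both no K5-Cre arrays and replicate 6 below both. The difference was 0.09 ± 0.21 (moderated SE, n = 2 per group, adjusted p = 0.728), with a 95% interval from −0.46 to 0.64. The direction turned with the array: without K5-Cre replicate 2 the difference was −0.21 and passed (adjusted p = 0.0164), and without replicate 6 it was 0.40 and passed (adjusted p = 0.000112). In both cases the lone K5-Cre array is taken to vary like the no K5-Cre pair. The cluster averages over the transcripts of the gene, so its long and short amino-terminal forms were not separated.

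Genes reported as targets of p63 in basal keratinocytes went both ways. Of 25 genes listed, 22 were tested, and 13 rose, 6 fell and 3 did not pass, with a median of 0.68. With no filter these counts were the same. Of all tested genes 25.2% rose and 38.8% fell, so the falls do not set this list apart. The largest rises were those of Itga3, an integrin subunit of basal cell adhesion (1.85 ± 0.21, adjusted p = 0.00163), Sfn, which encodes the cell cycle brake 14-3-3 sigma (1.82 ± 0.16, adjusted p = 0.000673), and the p63-dependent differentiation factor Zfp750 (1.47 ± 0.15, adjusted p = 0.00111). The largest falls were those of Fras1, of the basement membrane (−2.53 ± 0.11), Lef1, a Wnt effector of the hair follicle (−2.43 ± 0.09), and Fgfr2, a growth factor receptor (−2.40 ± 0.13). Fras1 and Lef1 lay under the filter level in the K5-Cre arrays, which fixed their direction. Satb1, a chromatin organiser downstream of p63, fell by 1.33 ± 0.10 (adjusted p = 0.000487). The basal keratins Krt5 and Krt14 rose by 0.30 ± 0.09 and 1.36 ± 0.08. Hair follicle markers fell in 12 of 16 cases with no filter in the same arrays, and their part in the falls was not tested.

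Both Krüppel-like factors rose. KLF4 is needed for the skin barrier, and KLF5 is more a factor of proliferating epithelial cells. The log2 signal of Klf4 was 9.76 and 9.78 without K5-Cre and 11.25 and 10.78 with it. The gap between the groups was far wider than the 0.03 between the no K5-Cre arrays, and the K5-Cre arrays differed from each other by 0.47. The rise was 1.24 ± 0.18 (95% interval 0.79 to 1.69, adjusted p = 0.00312). Klf5 was 10.66 and 10.72 without K5-Cre and 11.26 and 11.10 with it. Its groups did not overlap, but the rise was small, at 0.49 ± 0.11 (95% interval 0.22 to 0.76, adjusted p = 0.0124). The adjusted p of Klf5 was 0.172 when no K5-Cre replicate 1 was left out and 0.128 when replicate 3 was, so its call was lost in both cases. The interval of Klf4 lay above that of Klf5, and the difference between them was not tested. Monocytes, macrophages and endothelium can also make Klf4. In these arrays all 12 macrophage and monocyte markers rose with no filter. Their summed linear signal was 5598 to 5990 without K5-Cre and 26372 to 41364 with it. Of 12 endothelial and smooth muscle markers 6 fell and 0 rose, with the filter and without it. The shares of all genes that fell were 38.8% with the filter and 27.9% without it. Among these markers, 4 lay under the filter level in the K5-Cre arrays, which fixed their fall. The part of macrophages, monocytes and endothelium in the rise of Klf4 was not tested.

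Both grainyhead-like genes among the 10 rose, Grhl3 by 2.20 and Grhl1 by 0.92 on the log2 scale. GRHL3 is required for barrier formation and closure of wounds, and GRHL1 for desmosomal cadherin expression. Grhl3 lies on chromosome 4 from 135097803 to 135129535 (mm9). Its log2 signal was 9.48 and 9.37 without K5-Cre and 11.85 and 11.41 with it. Both K5-Cre arrays stood at least 1.93 above the higher no K5-Cre array. The rise was 2.20 ± 0.17 (95% interval 1.76 to 2.65, adjusted p = 0.00051). Grhl1 was 9.01 and 8.81 without K5-Cre and 9.98 and 9.69 with it, a rise of 0.92 ± 0.15 (95% interval 0.54 to 1.30, adjusted p = 0.00455) that missed the threshold without no K5-Cre replicate 3 (adjusted p = 0.0536). Within arrays, Grhl3 minus Grhl1 was 0.47 and 0.56 without K5-Cre and 1.87 and 1.72 with it, so the gap was wider on both K5-Cre arrays, a difference that was not tested. The third gene of the family, Grhl2, an epithelial factor, was 8.88 and 8.75 without K5-Cre and 9.17 and 8.35 with it, with groups that overlapped (−0.05 ± 0.28, adjusted p = 0.884).

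The ETS factor genes Ehf and Elf3 had the largest rises of the 10. Both proteins act in epithelia, where they drive late differentiation genes. Ehf lies on chromosome 2 from 103103590 to 103143353 (mm9). Its log2 signal was 7.54 and 7.18 without K5-Cre and 11.44 and 10.62 with it. The spread was also the widest of the 10 within both pairs, 0.36 between the no K5-Cre arrays and 0.82 between the K5-Cre arrays. The rise was 3.67 ± 0.30 (95% interval 2.90 to 4.44, which is 7.48-fold to 21.7-fold, adjusted p = 0.00057). Elf3 lies on chromosome 1 from 137150156 to 137155015 (mm9). It was 6.76 and 6.87 without K5-Cre and 10.08 and 9.41 with it, a rise of 2.93 ± 0.23 (95% interval 2.33 to 3.53, adjusted p = 0.000537). The no K5-Cre means of Ehf and Elf3, 7.36 and 6.82, lay under the filter level of 7.61. Both therefore entered the test only through the K5-Cre arrays and had to differ. Fitted with no filter, they had adjusted p values of 0.000324 and 0.00031. Whether the no K5-Cre signals of these genes stand above array background was not assessed, and the folds are those of the deposited values. Among relatives, Elf4 and Elf1 rose by 0.74 ± 0.17 and 0.65 ± 0.12, Elf2 and Spdef did not pass (adjusted p = 0.0657 and 0.0563), and Elf5 lay under the filter, at 6.03 and 6.09 without K5-Cre and 7.60 and 7.11 with it.

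Ovol1 and Hopx, which act as cells leave the proliferating layers, both rose. OVOL1 is a zinc finger repressor that lets keratinocytes stop dividing. Ovol1 lies on chromosome 19 from 5549137 to 5560646 (mm9), and its log2 signal was 8.78 and 8.81 without K5-Cre and 10.95 and 10.45 with it. The no K5-Cre arrays differed by only 0.04, and both K5-Cre arrays lay at least 1.64 above them. The rise was 1.90 ± 0.18 (95% interval 1.43 to 2.38, adjusted p = 0.00094). Hopx lies on chromosome 5 from 77516013 to 77544181 (mm9), and was 8.69 and 8.83 without K5-Cre and 11.26 and 10.81 with it. Its groups stood 1.99 apart, and it rose by 2.28 ± 0.18 (95% interval 1.83 to 2.74, adjusted p = 0.000507). OVOL and GRHL factors are known to hold down Zeb1 in epithelia. The genes listed for the epithelial to mesenchymal transition, called mesenchymal regulators below, include Zeb1. Vim, Cdh2 and Fn1 among them are markers rather than regulators. Of this list 1 of 10 rose, 6 fell, Cdh2 among them, and 3 did not pass. The counts higher and lower were the same with no filter. Of all tested genes 25.2% rose and 38.8% fell. Prrx1, Twist1 and Twist2, factors of mesenchymal cells, fell (log2 differences of −3.36 ± 0.12, −2.88 ± 0.10 and −2.86 ± 0.25), while Fn1, which encodes the matrix protein fibronectin, rose by 0.54 ± 0.14. Zeb1, its value given after it was seen, was 9.79 and 9.83 without K5-Cre and 7.47 and 7.49 with it. Of the 10, 3 lay under the filter level in the K5-Cre arrays, Zeb1 and Twist1 among them, which fixed their direction. The call of Fn1 was lost when no K5-Cre replicate 1 was left out (adjusted p = 0.0716), when replicate 3 was (adjusted p = 0.098) and against keratinocyte genes, where it was at −0.38 (adjusted p = 0.104). In the same arrays all 7 tested fibroblast markers fell (median −3.02). Their summed linear signal was 40982 to 42584 without K5-Cre and 5650 to 5827 with it. The part of fibroblasts in the falls of these listed genes was not tested.

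Gata3 was the only one of the 10 that fell. Its log2 signal was 10.29 and 10.25 without K5-Cre and 9.59 and 8.92 with it. Both K5-Cre arrays lay below both others, and they differed from each other by 0.66. The difference was −1.01 ± 0.23 (95% interval −1.61 to −0.42, adjusted p = 0.0148). The call ended when no K5-Cre replicate 1 was left out (adjusted p = 0.0718) and when replicate 3 was (adjusted p = 0.0629). Hair follicle and sebaceous markers were also lower. Of 17 listed, 12 were tested, and 9 fell, 1 rose and 2 did not pass, where 38.8% of all tested genes fell and 25.2% rose. However, 7 of the 12 lay under the filter level in the K5-Cre arrays, which fixed their fall. With no filter, 12 of 16 fell and 2 rose (median −1.06). Among them the lipid enzyme gene Scd1, the follicle stem cell gene Lgr5 and the follicle factor gene Lhx2 fell (log2 differences of −3.54 ± 0.21, −3.08 ± 0.09 and −2.69 ± 0.18), and Sox9, a follicle factor gene, rose by 0.70 ± 0.12. The call of Sox9 was lost when no K5-Cre replicate 1 was left out (adjusted p = 0.0727), when replicate 3 was (adjusted p = 0.0822) and against keratinocyte genes, where it was at −0.23 (adjusted p = 0.154). The summed linear signal of 16 such genes was 9428 to 9532 without K5-Cre and 3526 to 4140 with it. Krt71, Krt25, Krt27 and Krt73, keratins of the inner root sheath where GATA3 acts, named with their values known, fell by 1.12 to 2.17, and they are among the 7 whose fall the filter fixed, as is Lgr5. Tchh, which is also an inner root sheath gene, did not pass, at 8.55 and 8.33 without K5-Cre and 8.66 and 8.47 with it (0.12 ± 0.13, adjusted p = 0.446). Their part in the fall of Gata3 was not tested. For T cell and innate lymphoid markers, 10 of the 12 with a cluster lay under the filter, and all 10 were higher with K5-Cre, by 0.13 to 1.02. With no filter, 8 of the 12 passed as higher and 1, Thy1, as lower, where 30.8% of all genes were higher and 27.9% lower. The summed linear signal was 2766 to 2813 without K5-Cre and 2797 to 3139 with it, of which Thy1, a gene that fibroblasts also express, made up 57.0% to 59.7% and 25.8% to 27.0%. Thy1 fell by 1.06 ± 0.11, while Il7r, a receptor gene of lymphocytes that entered only through the K5-Cre arrays, rose by 2.07 ± 0.24. Among the other GATA genes, Gata6, which acts in the sebaceous duct, and Gata2 fell by 1.32 ± 0.10 and 0.69 ± 0.12, and Gata4 rose by 0.64 ± 0.09. The filter fixed the direction of Gata6 and Gata4, whose means lay under its level in the K5-Cre and the no K5-Cre arrays.

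The authors' deposited table, which keeps clusters past a 4-fold difference with no K5-Cre replicate 1 as baseline, lists 5 of the 10 genes. It holds 1396 of the 35557 clusters in all. Its values were processed otherwise than the series values, since the log2 of its signal differed by up to 2.47 from them. In the authors' deposited table Ehf was 16.6-fold and 9.26-fold above no K5-Cre replicate 1 in K5-Cre replicates 2 and 6, Elf3 7.84-fold and 5.10-fold, and Hopx 5.52-fold and 3.75-fold. For Grhl3 the authors' deposited table gives 4.57-fold and 3.43-fold and for Ovol1 4.20-fold and 2.90-fold. In each of these 5 cases replicate 2 stood above replicate 6, as in the series values.

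The arrays labelled K5-Cre differed from each other in the same direction for all 10 genes. Replicate 2 was higher than replicate 6 by 0.16 (Klf5) to 0.82 (Ehf), with a median of 0.48, whereas 44.6% of all tested genes were higher in replicate 2 and the median over them was −0.03. Keratinocyte junction and keratin genes ran the same way, with 12 of 12 higher in replicate 2 and a median of 0.27, as did 26 of 27 late envelope and barrier genes with a median of 0.39. So did 30 of 34 other transcription regulators of epidermis (median 0.33) and 18 of 22 reported p63 targets (median 0.27). Of the family relatives 17 of 29 were higher in replicate 2 (median 0.08). Macrophage and monocyte markers ran the other way, with 1 of 12 higher in replicate 2 and a median of −0.67. Hair follicle and sebaceous markers were higher in replicate 2 for 15 of 16 genes (median 0.14) and endothelial and smooth muscle markers for 10 of 12 (median 0.63). Among these the muscle filament gene Des, chosen after its values were seen, was 10.28 in replicate 2 against 7.27 in replicate 6. Of the neutrophil markers 5 of 10 were higher in replicate 2, with a median of −0.00. The part of these cell types in the difference between the K5-Cre arrays was not tested.

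**Figure D2:**
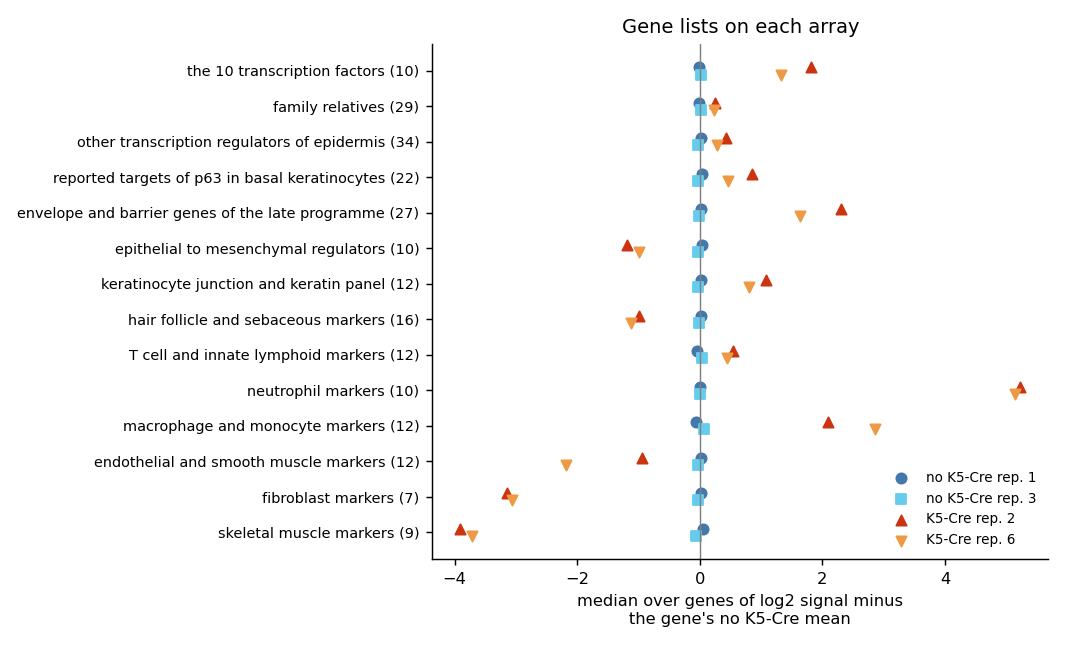
Median over the genes of each list of the log2 signal minus that gene's own no K5-Cre mean (horizontal axis), for each array, with the number of genes that have a cluster in brackets. The 10 transcription factors stood at 1.81 in K5-Cre replicate 2 and 1.33 in replicate 6, the keratinocyte panel at 1.08 and 0.81, and fibroblast markers at −3.15 and −3.07.

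Keratinocyte genes in general were higher in these arrays, and all 10 genes were read again relative to them. A panel of 12 genes of cell junctions and keratins was taken for this, in which 10 rose, 0 fell and Krt1 and Krt10 did not pass, with a median of 0.92. Its log2 differences ranged from 0.01 for the suprabasal keratin Krt10 to 3.24 for Dsg3, a desmosomal cadherin of the lower layers, so the panel does not move as a unit. The junction genes Cdh1, Jup, Pkp3, Pkp1, Dsc3, Perp and Dsp rose by 0.87 to 1.32. Krt5, Krt14, Perp, Dsp, Pkp1 and Dsc3 are also in the list of reported p63 targets. For Trp63 the panel is therefore no independent reference. Shifting each array by the panel's median lowered every difference by 0.92. The fit took this shift as known. The errors, intervals and p-values relative to the panel therefore leave out the spread among the panel genes. Relative to the panel, 5 of the 10 genes were still higher, 3 were lower and 2 did not pass, where 6.83% of all tested genes were then higher and 79.2% lower (86.1% in either direction). Ehf was higher by 2.75 ± 0.24, Elf3 by 1.53 to 2.48 (95% interval), Hopx by 1.36 ± 0.16, Grhl3 by 1.28 ± 0.15 and Ovol1 by 0.98 ± 0.16. Klf4 kept a difference of 0.32 ± 0.15 that did not pass (adjusted p = 0.0949), and that of Grhl1 was −0.00 ± 0.14 (95% interval −0.36 to 0.35, adjusted p = 0.99). Klf5 and Trp63 turned to lower values that passed, −0.43 ± 0.13 (adjusted p = 0.0185) and −0.83 ± 0.18 (adjusted p = 0.00516), and Gata3 was at −1.93 ± 0.19. Klf5 thus passed in opposite directions under the 2 scalings. Of these 2 scalings, Trp63 passed only against keratinocyte genes, and Grhl1 and Klf4 only with the values as deposited.

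**Figure D3:**
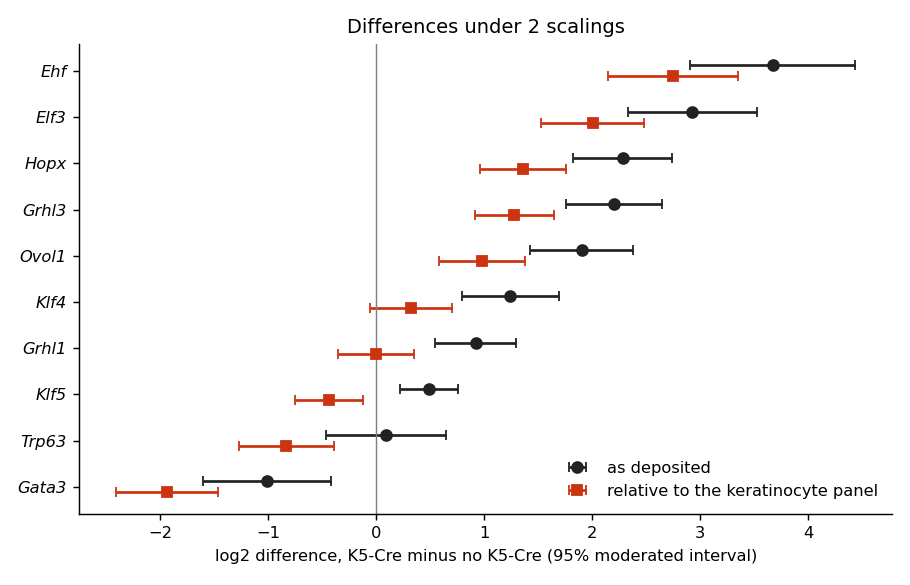
Log2 difference of each gene between K5-Cre and no K5-Cre skin (horizontal axis) with its 95% moderated interval, n = 2 arrays per group. Black circles are the values as deposited and red squares those after each array was shifted by the median of 12 keratinocyte genes. The intervals of the squares take that shift as known. The squares of Ehf, Elf3, Hopx, Grhl3 and Ovol1 remain above 0, those of Klf4 and Grhl1 have intervals that include 0, and those of Klf5, Trp63 and Gata3 lie below 0.

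Genes of the late programme, which several of these factors switch on, were higher as well. Of 30 listed, 27 had a cluster and 26 were tested, and 21 rose, 1 fell and 4 did not pass (median 1.90). Over all tested genes 25.2% rose and 38.8% fell. Rptn, Sprr1a and Sprr2d, precursors of the cornified envelope, led with 48.4-fold, 21.2-fold and 18.8-fold rises. Rptn was 5.77 and 5.85 without K5-Cre, under the filter level, so the filter fixed its direction, and its fold is that of deposited values not shown to stand above background. With no filter 22 of 27 rose and 1 fell (median 1.97). The gene that fell was the filaggrin relative Flg2 (−1.24 ± 0.32, adjusted p = 0.021), and its call was lost when no K5-Cre replicate 1 was left out (adjusted p = 0.0752) and when replicate 3 was (adjusted p = 0.0675). Chosen after their values were seen, the transglutaminase gene Tgm1, a GRHL3 target, rose by 2.25 ± 0.14 and the tight junction gene Cldn4, a GRHL target, by 2.49 ± 0.15. Krt1, Krt10, Lor and Hrnr did not pass, with differences between −0.10 and 0.07.

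Other transcription regulators of epidermis gave a mixed picture beside the 10. Of 36 listed, 30 were tested, and 14 rose, 6 fell and 10 did not pass (median 0.39). The shares over all tested genes, for this list and the relatives below, were 25.2% higher and 38.8% lower. The AP-1 subunit genes Fosl1 and Junb rose by 3.31 ± 0.18 and 2.62 ± 0.17 and Cebpb, which acts in suprabasal cells, by 1.86 ± 0.12. Tfap2b, Satb1 and Bcl11a fell (log2 differences of −1.41 ± 0.16, −1.33 ± 0.10 and −1.31 ± 0.14). The direction of Fosl1 and Tfap2b was fixed by the filter, and with no filter 16 of 34 rose and 7 fell. Among 30 relatives of the 10 by protein family, 21 were tested, of which 9 rose, 4 fell and 8 did not pass (median 0.36). Most were Krüppel-like genes: Klf10, Klf7, Klf3, Klf6, Klf13 and Klf16 rose by 0.64 to 1.26, and Klf9 and Klf12 fell by 1.19 ± 0.11 and 1.09 ± 0.21. No relative rose as much as Hopx, Grhl3, Ehf or Elf3.

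**Figure D4:**
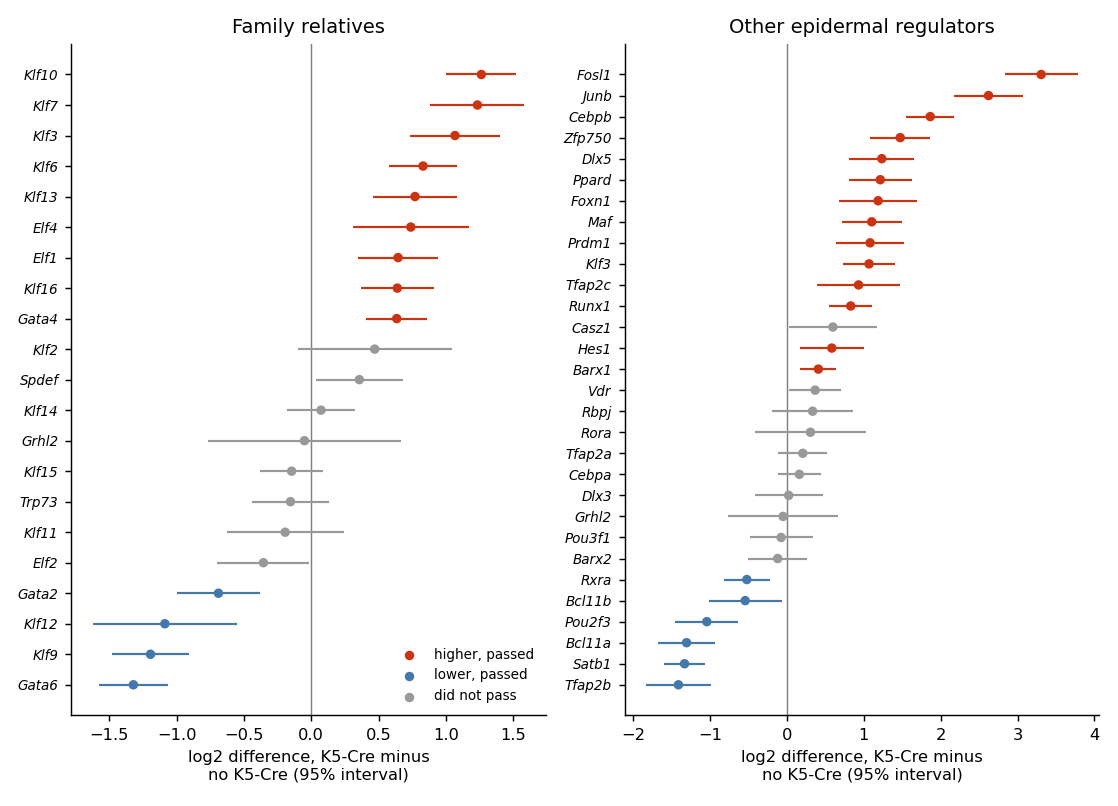
Log2 difference (horizontal axis) with 95% interval for the 21 tested family relatives (left) and the 30 other epidermal regulators tested (right), n = 2 arrays per group. Red genes passed and were higher, blue genes passed and were lower, and grey genes did not pass. Fosl1 and Junb are the only genes here with a rise above 2.

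Likeness of pattern was measured as the root mean square difference over the 4 arrays, after each gene's own no K5-Cre mean was subtracted, among 69 genes of these lists. Grhl3 and Hopx were each other's nearest gene, at 0.10. The nearest to Klf4 was Ppard, the gene of a nuclear receptor, at 0.03, and that to Gata3 was Klf12, at 0.06. The nearest to Trp63 was Dlx3, a homeobox gene of suprabasal cells, at 0.08, followed by Grhl2 at 0.14. Ehf lay nearest to Fosl1, at 0.29, Elf3 to Junb, at 0.23, and Ovol1 to Cebpb, at 0.13. Klf5 lay nearest to Ovol3, at 0.07, and Grhl1 to Tfap2c, at 0.10. With 4 arrays in 2 groups, these values mostly compare the sizes of the differences.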

How the data were processed

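Biotin-labelled cRNA made from total skin RNA was measured on Affymetrix arrays, per the labels. The authors deposited log2 values for 35557 transcript clusters on 4 arrays, which were used as deposited, and the summarisation and normalization behind them are not given in the sources used here. Their second table, filtered at the 20th percentile of the raw data and 4-fold per the file headers (mm9 annotation), holds a linear signal intensity per array, the authors' log2 values against a baseline and the authors' fold ratio against no K5-Cre replicate 1. It was used for positions and folds only. Of the clusters, 21789 have exactly 1 gene symbol in the platform annotation, 1621 several and 12147 none. Among those with 1 symbol, 21698 had an Entrez identifier found in RefSeq. They took the symbol given there, whether or not it differed. The members and gene lists were chosen with earlier results of these data known, which makes no list's direction independent evidence. A gene took its cluster with the highest mean, and entered above the median of all cluster means. The test between groups was limma's (version 3.58.1, R 4.3.3, moderated with a mean-variance trend, two-sided, Benjamini-Hochberg over 11255 genes, 5.01 degrees of freedom). The number of arrays limits the precision, with a median SE of 0.12. An exact permutation test of 2 against 2 arrays cannot give a two-sided p under 0.333. Errors are moderated SE. Summed linear signals are sums of 2 to the power of the log2 values. Genes named were the 10 members, the panel, the relatives that passed, in each list the 3 largest rises and falls that passed, and the most alike genes. The rule was relaxed only where the text says that a gene was chosen after its value was seen or gives a member of a list as a value that did not pass. Alternatives were no filter, a filter at the 75th percentile, no trend, quantile normalization, a common median, the keratinocyte panel and leaving out each array.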

Additional observations from a re-analysis of the deposited data

How the results depend on the processing

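Over 10 settings other than the one reported, the 10 transcription factors gave 88 values that kept direction and side of the threshold. The others were 6 that lost the call, 1 that gained it and 4 that changed sign. A change of sign was counted only as such, also where the call changed with it, as for Grhl1 and Trp63. Ehf, Elf3, Hopx, Grhl3 and Ovol1 kept their rise in each setting in which they were tested, and Elf3 was not tested under the stricter filter. Ehf and Elf3 entered the main filter only through the K5-Cre arrays, so settings that kept this filter are no independent check of their direction. The stricter filter level of 8.92 lies above the no K5-Cre means of Ehf (7.36), Hopx (8.76), Ovol1 (8.80) and Grhl1 (8.91). That filter therefore fixed their direction. Read against the keratinocyte panel, Klf5 was at −0.43 and passed as lower, Trp63 at −0.83 passed as lower, and Grhl1 at −0.002 and Klf4 at 0.32 lost their calls. Trp63 passed as lower without K5-Cre replicate 2, at −0.21, and as higher without replicate 6, at 0.40. Leaving out single arrays gave 6 to 10 of these genes past the threshold, 6 to 9 higher and 0 to 2 lower, and 3831 to 9147 of all genes (1463 to 3716 higher, 2368 to 5454 lower). In the same runs the counts higher and lower were 5 to 11 and 3 to 7 for the relatives, 11 to 21 and 4 to 9 for other regulators, 9 to 15 and 5 to 7 for p63 targets, 18 to 22 and 0 to 2 for envelope genes, 0 to 1 and 5 to 8 for mesenchymal regulators, 0 to 3 and 8 to 10 for hair follicle markers, 0 to 2 and 5 to 9 for endothelial markers, and 8 to 10 higher for the panel. The lone array of a group is there assumed to vary like the other pair. Without no K5-Cre replicate 1, where all mice are CflarF/F, 7 of the 10 genes were higher, 0 were lower and 3831 genes passed in all. Without a filter 11712 genes passed, 6145 higher, with 2 hair follicle and 8 T cell markers higher. Under the stricter filter 3534 passed, 1508 higher and 2026 lower, with 1 relative lower, 9 other regulators higher and 3 lower, 3 p63 targets, 3 mesenchymal regulators, 2 hair follicle and 2 endothelial markers lower, and 0 T cell and 4 neutrophil markers higher, where fewer genes were tested. Against the panel 769 genes were higher and 8916 lower, with 5 of the 10 genes higher and 3 lower, 0 relatives higher and 11 lower, 4 other regulators higher and 15 lower, 4 p63 targets higher and 10 lower, 6 envelope genes lower, 0 mesenchymal regulators higher, 4 panel genes higher and 3 lower, 0 hair follicle markers higher and 10 endothelial markers lower. The cause of other changes was not tested. Each of the 10 genes has 1 cluster, so no other cluster could be tried. No paired analysis was possible because the groups share no replicate number. Signal over background was not assessed, which limits the low signals of Ehf and Elf3.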
